A study of Mus musculus with 12 samples.

Results

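The small heat shock proteins Hspb1, Hspb8 and Cryab, the co-chaperone Bag3, and the HSP90 co-chaperones Stip1, Ahsa1, Chordc1, Fkbp4 and Cdc37 were followed in brain and liver of heat-stressed old mice. These 9 genes were chosen by symbol from the 25239 gene symbols of the merged count table, and all 9 passed the filter on low counts in both tissues. The mice were wild-type C57BL6/J males aged 24 months, and 24 months and 16 days when they were killed. Heat stress mice were kept at 40 ± 0.5 °C and 60 ± 5% relative humidity for 3 hours per day over 15 days, and control mice did not receive this exposure. Messenger RNA was sequenced from 3 control and 3 heat stress libraries of each tissue, 12 libraries in all, each made from a piece of frozen brain or liver. The age of the animals, the strain and the genotype were the same in every group. The labels do not name the part of the brain or the lobe of the liver, nor do they say which brain and which liver came from the same mouse.

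Small heat shock proteins bind unfolding proteins without using ATP and hold them until other chaperones refold them. BAG3 joins HSPB8 and HSP70 in a complex that directs damaged proteins to autophagy. HSP90 works through a cycle of ATP binding and hydrolysis on which co-chaperones act at separate steps: STIP1 links HSP70 to HSP90 and hands over the client, CDC37 brings in protein kinases, AHSA1 speeds the hydrolysis of ATP, FKBP4 joins the late complex with steroid receptors, and CHORDC1 binds HSP90 through its CHORD domains. Many of these genes are induced by heat shock factor HSF1, which binds heat shock elements, repeats of the unit GAA and its reverse complement TTC spaced by pairs of free bases.

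The promoters were searched because the members are known as a heat shock set. RefSeq promoters (build GRCm38.p6, 250 bases before to 50 after the gene's start) were on hand for 8 members, and Cryab had none. They were searched on both strands for GAANNTTC and TTCNNGAA, each of which is its own reverse complement, and which overlap where units follow each other. Of the 8 promoters, 6 held either pair, against 15.1% of the 32851 promoters in the table. GAANNTTC was found in 5 of 8 (7.86% of all promoters) and TTCNNGAA in 2 of 8 (8.52%). A run of 3 units (GAANNTTCNNGAA or TTCNNGAANNTTC) was found in the Chordc1 promoter, 1 of 8, against 0.603% of all promoters. The 30-base windows around these matches are shown to let their letters be compared, 5′ to 3′ on the strand of the gene, with the matched units and their spacers in capitals.
Hspb1, chr5:135887791-135887820, plus strand: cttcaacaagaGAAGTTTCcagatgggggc
Hspb1, chr5:135887811-135887840, plus strand: agatgggggcaGAACCTTCctggccccgcc
Hspb8, chr5:116422844-116422873, minus strand: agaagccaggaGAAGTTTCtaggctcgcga
Bag3, chr7:128523603-128523632, plus strand: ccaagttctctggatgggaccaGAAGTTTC
Chordc1, chr9:18292260-18292289, plus strand: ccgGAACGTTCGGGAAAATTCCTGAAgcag
Fkbp4, chr6:128438789-128438818, minus strand: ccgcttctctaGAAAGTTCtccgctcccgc
Cdc37, chr9:21150086-21150115, minus strand: tcggcgggaacTTCCAGAAggcctcaccac
The letters GAAGTTTC occurred in Hspb1, Hspb8 and Bag3 alike. Both matches of Hspb1 lay before the gene's start, at -117 to -110 and -97 to -90, and that of Fkbp4 lay at -151 to -144. These distances count from the RefSeq start, which differs from the GENCODE start given in the next paragraph for several members, among them Chordc1, Bag3 and Fkbp4. In Chordc1 the units ran on across the RefSeq start from -4 to 19, with a further TTCCGGAA at 34 to 41. Neither pair was found in the windows of Stip1 and Ahsa1. A match describes letters only, and no binding was measured.

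In the mouse genome GRCm38, which is mm10, GENCODE M21 places Hspb1 (ENSMUSG00000004951.10) at chr5:135887919-135889563, Hspb8 (ENSMUSG00000041548.4) at chr5:116408491-116422864 and Cryab (ENSMUSG00000032060.10) at chr9:50751325-50756636. Bag3 (ENSMUSG00000030847.8) lies at chr7:128523616-128546981. The co-chaperones lie at chr19:7020702-7039967 (Stip1, ENSMUSG00000024966.9), chr12:87266479-87273998 (Ahsa1, ENSMUSG00000021037.7), chr9:18292125-18317442 (Chordc1, ENSMUSG00000001774.8), chr6:128429735-128438677 (Fkbp4, ENSMUSG00000030357.10) and chr9:21133222-21149982 (Cdc37, ENSMUSG00000019471.10). All 9 are protein-coding. Reads of Hspb1 are uncertain, because 51.6% of the 50-base stretches of its longest transcript also occur in the pseudogene Hsp25-ps1, which was not analysed here. Cryab shares 252 exonic bases with Hspb2 on the opposite strand. The kit marked strand, but the setting used for counting is not given in the sources used here. For Stip1 5.59% of such stretches were shared with Cfap20, and for the other 6 members at most 1.52% were shared with any other gene.

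Library totals ran from 10466198 to 15609040 counts. Hepatocyte markers summed to 114154 to 192364 CPM (counts scaled to library size as CPM and normalized by TMM over the 12 libraries) in liver and to 1.34 to 12.04 CPM in brain, and neuron markers to 5515 to 8095 CPM in brain, so each library matched its labelled tissue. Among the liver libraries, control 1 and heat stress 2 carried skeletal muscle transcripts. The sum of 10 muscle markers was 653 CPM in liver control 1 and 3500 CPM in liver heat stress 2, against 1.46 to 10.6 CPM in the other 4 liver libraries. Muscle actin Acta1 reached 135 and 823 CPM in these 2 libraries. Liver control 1 also held more neuron transcripts (60.8 CPM) than the other 5 liver libraries (19.4 to 30.5 CPM). Liver log2 fold changes are therefore given with and without these 2 libraries. In brain, 3 marker lists moved with the groups. Endothelial markers summed to 73.6 to 149 CPM in control and 50.1 to 61.9 CPM in heat stress brains, choroid plexus markers to 842 to 1698 and 176 to 760.2 CPM, and striatal markers to 199.6 to 354 and 351 to 796 CPM. All 6 markers of each of these lists had counts in every brain library.

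The first question was whether repeated heat changed these genes in brain. No member was called at an adjusted p under 0.05 by edgeR's quasi-likelihood test (0 of 9, background 0.00% of 14806 genes tested), and DESeq2 on the same libraries called 0 members among its 618 genes. DESeq2 left the adjusted p of Hspb1, Hspb8 and Bag3 unset here, so its 0 covers only the other members. At an unadjusted p under 0.05, 3 members were lower in heat stress brains (Cryab, Bag3 and Fkbp4), against 10.0% of all genes in that direction. The same 3 members had no overlap between groups with heat stress lower, against 12.2% of all genes. The estimate was below 0 for 7 of 9 members, and for 50.3% of all genes. The median log2 fold change was -0.19 over the members and -0.0030 over all genes tested.

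Cryab, alpha B-crystallin, was the most abundant of the 3 small heat shock protein transcripts in brain per kilobase of transcript. It stood at 80.4, 86.1 and 111 CPM in control and at 76.4, 74.6 and 60.5 CPM in heat stress brains. All heat stress libraries lay below all control libraries, with a narrow gap between the highest heat stress and the lowest control library. The log2 fold change was -0.38 ± 0.15 (SE, n = 3 libraries per group), with an unadjusted p of 0.0304 and an adjusted p of 0.212 by edgeR. With the choroid plexus score as a covariate the estimate was -0.044, with the striatal score -0.16, with the endothelial score -0.48 and with the oligodendrocyte score -0.40. Without brain control 3 it was -0.24. These covariates were chosen after seeing the data, and the part of these cells in the result was not tested further. In bulk tissue, fewer cells of a type and less RNA per cell cannot be told apart.

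Bag3 stood at 6.66, 6.93 and 6.03 CPM in control and at 4.70, 5.54 and 4.58 CPM in heat stress brains. Again every heat stress library was below every control library. Its log2 fold change was -0.40 ± 0.17 (SE), with an unadjusted p of 0.0460 and an adjusted p of 0.241 by edgeR. Over the covariates for choroid plexus, endothelium, striatum and oligodendrocytes its estimate ran from -0.38 to -0.29. These are low counts, 71 to 142 reads per library.

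Hspb1 and Hspb8 overlapped between the groups in brain. Hspb1 was at 3.99, 3.26 and 3.35 CPM in control and at 1.69, 4.01 and 2.13 CPM in heat stress brains. Heat stress library 2 was as high as the highest control, while the other 2 heat stress libraries were below all controls. The log2 fold change of Hspb1 was -0.43 ± 0.32 (SE; adjusted p = 0.469 by edgeR). It was -0.88 without heat stress library 2, 0.17 with the striatal score as a covariate and -0.0053 with the endothelial score. Hspb8, the partner of BAG3, was at 12.7, 19.5 and 15.1 CPM in control and at 13.9, 21.7 and 12.6 CPM in heat stress brains. The ranges were nearly the same, and its log2 fold change was 0.04 ± 0.23 (SE), with an interval of -0.42 to 0.50 at ±2 standard errors.

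Among the HSP90 co-chaperones in brain, Fkbp4, a peptidyl-prolyl isomerase of the steroid receptor complex, was the one whose groups did not overlap. It stood at 88.2, 79.5 and 88.9 CPM in control and at 72.6, 63.4 and 66.2 CPM in heat stress brains. The fitted level was 1.26-fold lower with heat stress, a log2 fold change of -0.34 ± 0.11 (SE), an unadjusted p of 0.0111 and an adjusted p of 0.172 by edgeR. The estimate ran from -0.36 to -0.29 over the 12 other settings tried and from -0.40 to -0.29 when each library was left out.

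Stip1 was at 108, 111 and 113 CPM in control and at 111, 89.7 and 91.5 CPM in heat stress brains, and Ahsa1 was at 76.3, 72.1 and 73.3 and at 72.6, 57.5 and 63.5 CPM. Both genes showed the same layout, with heat stress libraries 2 and 3 below all controls and library 1 among them. Their log2 fold changes were -0.18 ± 0.12 and -0.19 ± 0.11 (SE; adjusted p = 0.413 and 0.373 by edgeR). Chordc1 was at 30.4 to 40.0 CPM in control and at 32.1 to 33.8 CPM in heat stress brains (log2 fold change -0.11 ± 0.12). The Chordc1 estimate was -0.33 with the endothelial score as a covariate, -0.21 with the striatal, -0.12 with the oligodendrocyte and -0.032 with the choroid plexus score. Cdc37, the kinase adaptor, was at 76.7 to 86.8 and 75.3 to 85.5 CPM. Its log2 fold change was 0.0091 ± 0.11 (SE), with an interval of -0.21 to 0.22.

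**Figure D1:**
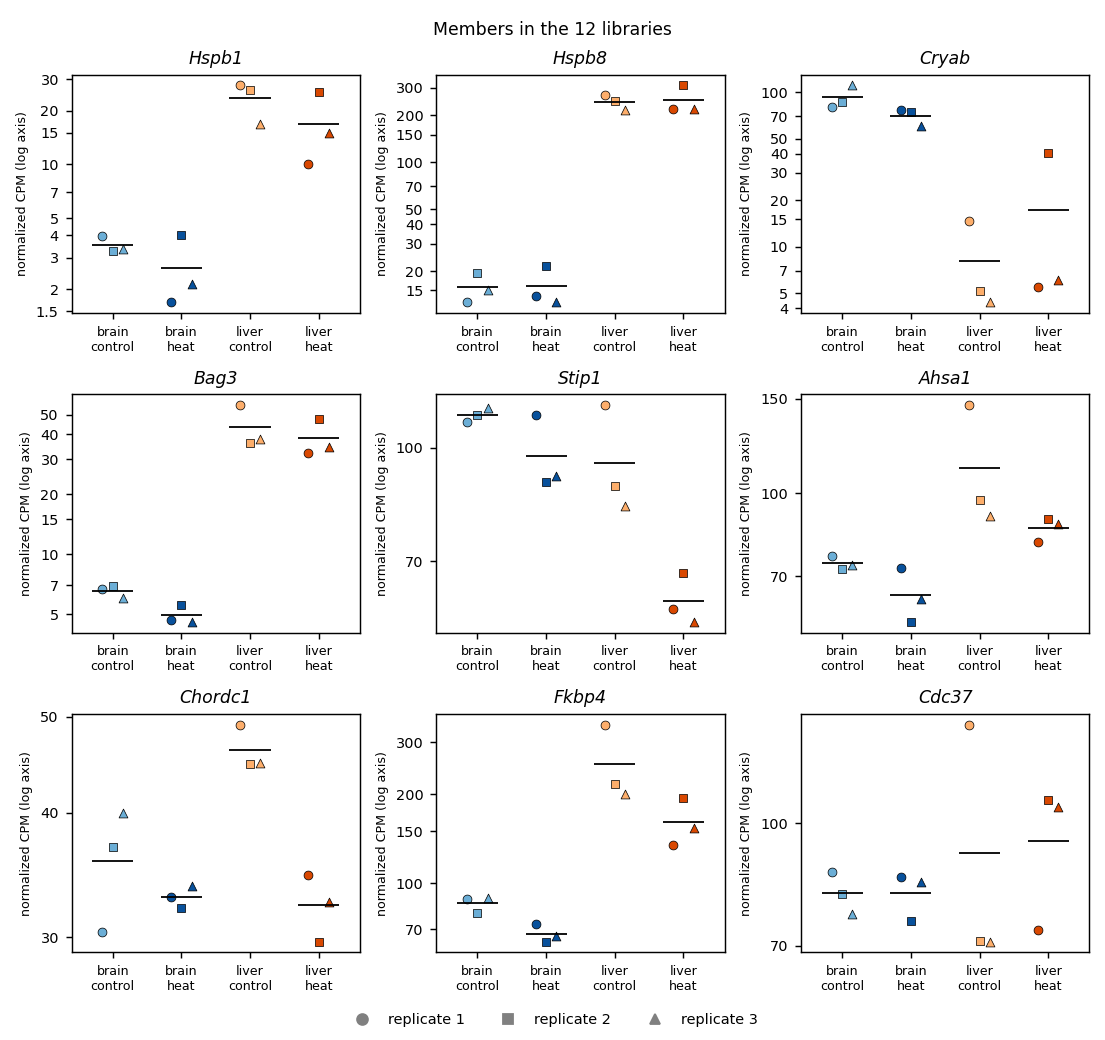
Normalized CPM (log axis, a range of its own in each panel) of the 9 members in the 12 libraries, by group. Points are libraries, shapes are replicate numbers and bars are group means. Heat stress points lie below all control points for Cryab, Bag3 and Fkbp4 in brain and for Stip1, Ahsa1, Chordc1 and Fkbp4 in liver. Liver control 1 and liver heat stress 2 are the highest liver libraries for Cryab, Bag3, Hspb8 and Cdc37.

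In liver, no member was called either (0 of 9, background 0.00% of 12296 genes tested), and DESeq2 on the same libraries called 0 members among its 61 genes. At an unadjusted p under 0.05, 3 members were lower with heat stress (Stip1, Chordc1 and Fkbp4), against 2.87% of all genes. Counted by overlap, 4 members had every heat stress library below every control library (the same 3 and Ahsa1), against 6.86% of all genes. The estimate was below 0 for 6 of 9 members and for 48.2% of all genes. The median log2 fold change was -0.34 over the 9 members, -0.50 over the 5 HSP90 co-chaperones, 0.05 over the 3 small heat shock proteins and 0.01 over all genes tested. Without the 2 muscle-carrying libraries, 4 members were lower at an unadjusted p under 0.05 (Hspb1 besides the same 3), against 4.57% of all genes, and the median was -0.19 over the members, -0.45 over the HSP90 co-chaperones and -0.11 over the small heat shock proteins. All 4 genes without overlap were HSP90 co-chaperones.

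Stip1, the link between HSP70 and HSP90, stood at 114, 88.8 and 83.2 CPM in control livers and at 60.3, 67.5 and 57.9 CPM in heat stress livers. The gap between the groups was wider than the range of the heat stress libraries. The log2 fold change was -0.60 ± 0.16 (SE), 1.51-fold lower, with an unadjusted p of 0.00433 and an adjusted p of 0.465 by edgeR. Over all settings tried the adjusted p of Stip1 reached down to 0.00227, with DESeq2 on all 12 libraries. It was 0.0661 with DESeq2 on the liver libraries alone and 0.225 with edgeR on all 12 libraries. Without both muscle-carrying libraries the estimate was -0.57 and the adjusted p was 0.228.

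Chordc1 stood at 49.1, 44.8 and 44.9 CPM in control livers and at 34.6, 29.7 and 32.6 CPM in heat stress livers. Both groups were tight, and liver heat stress 2 was the lowest library. Its log2 fold change was -0.50 ± 0.16 (SE), with an unadjusted p of 0.0117 and an adjusted p of 0.665 by edgeR. With DESeq2 on all 12 libraries the adjusted p was 0.0401. It was 0.372 with DESeq2 on the liver libraries alone and 0.266 with edgeR on all 12 libraries. Without the muscle-carrying libraries the estimate was -0.45.

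Fkbp4 stood at 343, 216 and 199.98 CPM in control livers and at 135, 194 and 154 CPM in heat stress livers. Liver control 1 was far above the rest, and liver heat stress 2 came within a few CPM of the lowest control. The log2 fold change was -0.62 ± 0.22 (SE), 1.54-fold lower, with an unadjusted p of 0.0173 and an adjusted p of 0.774 by edgeR. It was -0.43 without liver control 1 and -0.56 without both muscle-carrying libraries. Fkbp4 was the only member with heat stress below control without overlap in both tissues, which held for 0.565% of the 11322 genes tested in both.

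Ahsa1, the activator of the HSP90 ATPase, stood at 146, 97.3 and 90.8 CPM in control livers and at 80.9, 89.3 and 87.6 CPM in heat stress livers. Apart from liver control 1 the groups lay close together. Its log2 fold change was -0.34 ± 0.18 (SE; adjusted p = 0.912 by edgeR) and -0.18 without liver control 1 and -0.19 without both muscle-carrying libraries. Cdc37 stood at 133, 71.0 and 70.8 CPM in control livers and at 73.2, 107 and 105 CPM in heat stress livers. Its groups overlapped through liver control 1 alone, with a log2 fold change of 0.09 ± 0.24 (SE) over all 6 libraries and 0.37 without liver control 1 (unadjusted p = 0.0830 by edgeR). Without both muscle-carrying libraries it was 0.29. Among the member co-chaperones, Cdc37 was thus the one with a liver estimate above 0, and it was at -0.041 without liver control 3. The column names of liver control 2 and of liver heat stress 1 and 3 carry a suffix that is not explained. With the suffix as covariate the liver log2 fold changes were -0.57 for Stip1, -0.55 for Chordc1, -0.53 for Fkbp4 and -0.31 for Ahsa1.

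**Figure D2:**
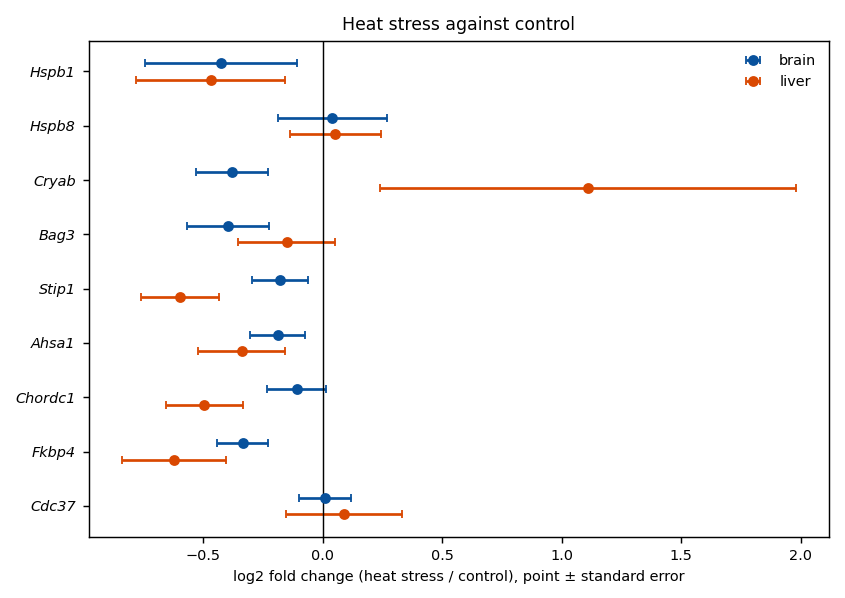
Log2 fold change of heat stress against control (x axis) for the 9 members (y axis) in brain and in liver, each from its own edgeR fit of 6 libraries. Bars are standard errors. Estimates for Stip1, Chordc1 and Fkbp4 in liver lie at -0.60, -0.50 and -0.62, and Cryab in liver has the widest bar, at 1.11 ± 0.87.

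Of the small heat shock proteins and Bag3 in liver, Cryab, Hspb8 and Bag3 were highest in the 2 libraries with muscle transcripts. Among the member co-chaperones the same held for Cdc37, with liver heat stress 3 close behind. Cryab, which muscle expresses at a high level, stood at 14.7, 5.16 and 4.38 CPM in control livers and at 5.45, 40.1 and 6.11 CPM in heat stress livers. Its highest libraries were liver heat stress 2 and liver control 1, in the order of their muscle sums, and the other 4 lay between 4.38 and 6.11 CPM. The log2 fold change was 1.11 ± 0.87 (SE; adjusted p = 0.946 by edgeR). It was -0.42 without liver heat stress 2, 0.24 without both muscle-carrying libraries and 0.32 with the muscle score as a covariate. Hspb2, which shares bases with Cryab, was also highest in liver heat stress 2, at 27 counts against 2 to 9 in the other 5 liver libraries.

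Hspb8 stood at 269.8, 248 and 217 CPM in control livers and at 221, 312 and 221 CPM in heat stress livers. It was highest in the 2 muscle-carrying libraries, and the other 4 lay between 217 and 248 CPM. Its log2 fold change was 0.05 ± 0.19 (SE) and -0.11 without both libraries. Bag3 followed the same layout, at 56.0, 36.1 and 37.7 CPM in control livers and at 32.4, 47.9 and 34.4 CPM in heat stress livers, with a log2 fold change of -0.15 ± 0.20 and -0.18 without both libraries (adjusted p = 0.963 and 0.801 by edgeR). Leaving out 1 library moved Bag3 from -0.0035 without liver control 1 to -0.32 without liver heat stress 2.

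Hspb1 stood at 27.7, 26.0 and 16.7 CPM in control livers and at 10.0, 25.3 and 15.0 CPM in heat stress livers. Liver heat stress 2 was level with the higher controls, and the other 2 heat stress libraries were below all controls. The log2 fold change was -0.47 ± 0.31 (SE; unadjusted p = 0.164 by edgeR). Without both muscle-carrying libraries it was -0.81 with an unadjusted p of 0.00707 and an adjusted p of 0.245 by edgeR, and with the muscle score as a covariate -0.66. It was -0.23 without liver heat stress 1, the lowest library. Whether the spread of Hspb1 follows the share of any cell type was not tested.

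**Figure D3:**
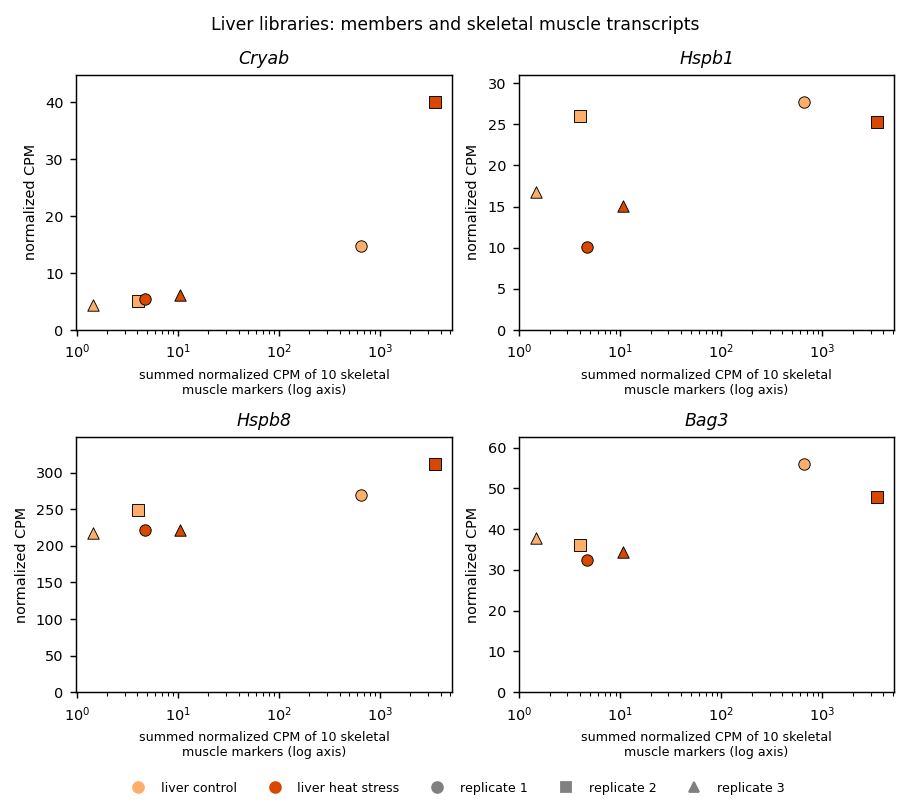
Normalized CPM of Cryab, Hspb1, Hspb8 and Bag3 (y axis, from 0) against the summed CPM of 10 skeletal muscle markers (x axis, log scale) in the 6 liver libraries. Colours are groups and shapes are replicate numbers. Liver control 1 (653 CPM of muscle markers) and liver heat stress 2 (3500 CPM) hold the highest Cryab, Hspb8 and Bag3 values, while Hspb1 is about as high in liver control 2.

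The next question was whether heat acted differently in brain and liver. In a fit of the 4 groups, no member was called for a heat effect that differed between tissues (0 of 9 called, background 0.00632% of 15824 genes; 0 by DESeq2, and 0 at an unadjusted p under 0.05, against 9.64% of all genes). The estimate was lower in liver than in brain by 0.44 ± 0.22 for Stip1 (log2 difference -0.44, unadjusted p = 0.0645 and adjusted p = 0.527 by edgeR). For Chordc1 it was -0.40 ± 0.20 (adjusted p = 0.524 by edgeR), and for Fkbp4 -0.31 ± 0.29 (adjusted p = 0.712 by edgeR). The Cryab difference of 1.46 ± 0.95 turned to -0.12 without liver heat stress 2 and was 0.66 without both muscle-carrying libraries (unadjusted p = 0.0440 and adjusted p = 0.335 by edgeR). Without liver control 1 the Fkbp4 difference shrank to -0.031, and the Ahsa1 difference of -0.18 ± 0.25 turned to 0.065. These intervals are wide, and a miss of the threshold does not show that the tissues acted alike.

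Averaged over both tissues, the heat effect was -0.41 ± 0.11 for Stip1, -0.50 ± 0.15 for Fkbp4, -0.32 ± 0.098 for Chordc1 and -0.29 ± 0.12 for Ahsa1 (log2, ± SE). These 4 co-chaperones had an unadjusted p under 0.05 (0.00243, 0.00434, 0.00621 and 0.0392 by edgeR), against 4.90% of all genes in that direction. None was called after adjustment over 15824 genes (adjusted p from 0.539 to 0.590 by edgeR, background 0.0569%). DESeq2 called Stip1 (adjusted p = 0.00919) and Fkbp4 (adjusted p = 0.0394) among its 70 genes. Bag3 had a mean effect of -0.29 ± 0.15 and Hspb1 of -0.46 ± 0.25, while Hspb8 and Cdc37 were at 0.03 ± 0.16 each. Cryab was at 0.34 ± 0.47, and at -0.060 without the 2 muscle-carrying liver libraries. Without liver control 1 the mean effect of Ahsa1 was -0.16 and that of Bag3 -0.18, and without brain heat stress 2 that of Hspb1 was -0.70. This fit counts the 12 libraries as independent, and its standard errors, p-values and DESeq2 calls do not allow for any pairing of brain and liver libraries by mouse. With the replicate number as a random effect in limma (correlation 0.10), 0 members were called, Stip1 was at -0.40 (adjusted p = 0.674) and Fkbp4 at -0.48 (adjusted p = 0.730).

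The rest of the pathway was read from lists of the other family members. Over all genes tested, an unadjusted p under 0.05 was reached by 10.0% as higher and 10.0% as lower in brain. In liver it was reached by 2.97% as higher and 2.87% as lower, and without the 2 muscle-carrying libraries by 5.84% and 4.57%. The counts of the short lists are to be read beside these shares. HSP90, HSP70 and their direct partners had 3 of 8 genes lower in brain and 3 of 7 lower in liver at an unadjusted p under 0.05, with none higher in either tissue and none called by edgeR from all 6 libraries of a tissue. In liver these included Hsp90aa1, the inducible HSP90, at 258, 310.0 and 292 CPM in control and 96.0, 122 and 72.0 CPM in heat stress libraries (log2 fold change -1.56 ± 0.23, adjusted p = 0.107 by edgeR). Hsph1, an HSP70 nucleotide exchange factor, was at 59.6, 67.7 and 61.4 against 24.4, 21.2 and 26.5 CPM (-1.37 ± 0.18, adjusted p = 0.0678 by edgeR). Without the 2 muscle-carrying libraries both were called as lower in liver by edgeR, Hsp90aa1 at -1.87 (adjusted p = 2.48e-05) and Hsph1 at -1.38 (adjusted p = 7.91e-04), while the median over the 7 partners moved from -0.28 to -0.11. Averaged over both tissues, edgeR called 1 of the 8 partners as lower, Hsph1 at -0.86 ± 0.10 (log2, ± SE; adjusted p = 0.00983). This call was lost without brain control 2 (adjusted p = 0.0551), brain heat stress 1 (adjusted p = 0.0502) or brain heat stress 2 (adjusted p = 0.0715 by edgeR). In liver, both genes showed a gap between the groups larger than that of any co-chaperone among the members. In brain the inducible HSP70 genes Hspa1a and Hspa1b had the smallest p of the list, with log2 fold changes of -0.85 ± 0.26 and -1.06 ± 0.40 (adjusted p = 0.171 and 0.202 by edgeR). The near-identical Hspa1a and Hspa1b share reads, and their split is uncertain.

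The other HSP90 co-chaperones had medians near that of all genes. Of 26 tested in brain, 3 were higher and 0 lower at an unadjusted p under 0.05, near the 10.0% of all genes that were higher, with a median log2 fold change of 0.08. Of 26 tested in liver, 2 were higher and 2 lower, with a median of 0.02. Without the 2 muscle-carrying libraries 2 were higher and 4 lower, against 5.84% and 4.57% of all genes, with a median of 0.09. In brain Tomm70a, a mitochondrial import receptor that binds HSP90, and Nudcd2 had the smallest p (log2 fold changes 0.46 ± 0.14 and 0.44 ± 0.14, adjusted p = 0.172 for both by edgeR). In liver these were Fnip2, which binds HSP90 and folliculin, at 0.72 ± 0.19, and Fkbp5 at 0.56 ± 0.17 (adjusted p = 0.465 and 0.604 by edgeR), and without the 2 muscle-carrying libraries they were at 0.71 and 0.57. Fkbp5 is the immunophilin that competes with FKBP4 for a place in steroid receptor complexes. It stood at 19.1, 17.6 and 17.4 CPM in control livers and at 24.8, 25.3 and 28.5 CPM in heat stress livers. In liver Fkbp5 was higher and Fkbp4 lower with heat stress, each without overlap, and neither was called. Of all 12296 genes tested in liver, 542 had no overlap with heat stress higher and 843 with heat stress lower. In brain Fkbp5 was at 0.11 ± 0.15. A link between the changes of these 2 genes was not tested.

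BAG proteins other than Bag3 had 1 of 5 higher (Bag1, log2 fold change 0.34 ± 0.13) and 1 of 5 lower (Bag6, -0.43 ± 0.12) in brain at an unadjusted p under 0.05. Of all genes in brain, 10.0% were higher and 10.0% lower at this threshold. In liver 0 of 5 BAG proteins passed it, and the smallest p values were those of Bag6 (0.19 ± 0.27) and Bag2 (0.05 ± 0.25). Among the heat shock factors and their binding protein, 1 of 5 was higher in brain (Hsbp1, which binds HSF1, 0.35 ± 0.14). Hsf2 stood at 0.22 ± 0.11 in brain. In liver 1 of 4 was lower (2.87% of all genes), Hsf2 at -0.43 ± 0.19, and Hsf4 stood at 0.31 ± 0.27. None of the other small heat shock proteins passed in brain (0 of 3 tested; Hspb2 0.24 ± 0.39 and Hspb3 0.03 ± 0.36) or in liver (0 of 1; Hspb6 0.49 ± 0.41). Hspb6 was highest, at 51.4 CPM, in muscle-carrying liver heat stress 2, against 14.7 to 30.2 CPM in the other 5 liver libraries. Without the 2 muscle-carrying libraries the liver estimates were 0.09 for Hspb6, 0.40 for Bag6, 0.11 for Bag2, -0.63 for Hsf2 and 0.54 for Hsf4, with 0 of 5 BAG proteins and 1 of 4 heat shock factors past an unadjusted p under 0.05.

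**Figure D4:**
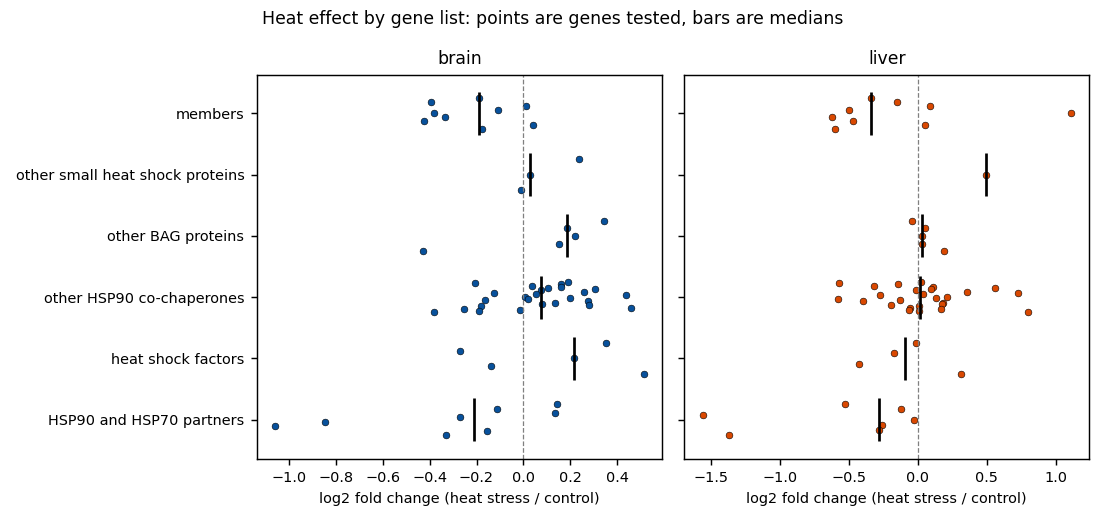
Log2 fold change of heat stress against control (x axis, a range of its own in each tissue) for each gene tested in the 9 members and 5 lists of related genes (y axis). Points are genes and bars are list medians. The median of the members is -0.19 in brain and -0.34 in liver, that of the HSP90 and HSP70 partners -0.21 and -0.28, and that of the other HSP90 co-chaperones 0.08 and 0.02.

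Brain and liver differed more than heat stress and control did for Hspb1, Hspb8, Cryab, Bag3, Fkbp4 and Ahsa1. For Stip1 and Chordc1 the liver heat effect (log2 -0.60 and -0.50) was larger than the difference between control tissues (0.22 and -0.37). In control mice 7 of 9 members were called between the tissues by edgeR, against a background of 80.4% of 15824 genes, so a count of 7 is near what holds for genes at large. Of these, 6 were lower in brain (36.1% of all genes) and 1, Cryab, was higher in brain (44.2%). Hspb8 differed most, with 217 to 269.8 CPM in liver and 12.7 to 19.5 CPM in brain, 15.6-fold higher in liver (log2 fold change of brain against liver -3.96 ± 0.26, adjusted p = 5.18e-09 by edgeR). Hspb1 was 6.63-fold and Bag3 6.61-fold higher in liver (log2 fold changes -2.73 ± 0.36 and -2.73 ± 0.21). Cryab went the other way, 11.2-fold higher in brain (3.49 ± 0.73, adjusted p = 9.81e-04 by edgeR). Without liver control 1, which carries muscle, the Cryab difference was 4.27 and that of Hspb8 -3.89, so Cryab then differed most.

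The co-chaperones differed less between tissues. Fkbp4 was 2.96-fold higher in control liver (log2 fold change -1.57 ± 0.21, adjusted p = 1.01e-05 by edgeR), and Ahsa1 1.51-fold higher (-0.59 ± 0.18, adjusted p = 0.00712). Without liver control 1 the Ahsa1 difference was -0.35. Chordc1 was 1.29-fold higher in liver (-0.37 ± 0.14, adjusted p = 0.0239 by edgeR), a call lost without liver control 1 (adjusted p = 0.0533), without brain control 1 (0.0703), with RLE factors (0.0563) and in an edgeR fit of the 6 control libraries alone (0.0690). Stip1 (0.22 ± 0.15) and Cdc37 (-0.17 ± 0.23) were not called. Without liver control 1 Stip1 was called as higher in brain (0.37, adjusted p = 0.0272 by edgeR), as it was by DESeq2 on all libraries (0.30, adjusted p = 0.0354), and the Cdc37 estimate turned to 0.20.

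In heat stress mice 7 of 9 members were again called between the tissues (background 79.4%), 2 higher in brain (44.3% of all genes) and 5 lower (35.1%), but they were not the same 7 genes. Stip1 was called as higher in brain (log2 fold change 0.65 ± 0.15, adjusted p = 0.00149 by edgeR), while Chordc1 was not called (0.03 ± 0.14, interval -0.25 to 0.31). Hspb1 (-2.68 ± 0.37), Hspb8 (-3.96 ± 0.26), Bag3 (-2.95 ± 0.22) and Fkbp4 (-1.25 ± 0.21) were lower in brain by amounts near those in control mice. Ahsa1 was at -0.41 ± 0.18 (adjusted p = 0.0447 by edgeR), a call lost without any 1 of the 3 liver heat stress libraries (adjusted p = 0.0557, 0.0995 and 0.0956 without libraries 1, 2 and 3). Cryab was at 2.03 ± 0.67 and at 3.61 without liver heat stress 2. The test of the difference between these 2 tissue contrasts is the test of the heat effect between tissues given before, which called no member.

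**Figure D5:**
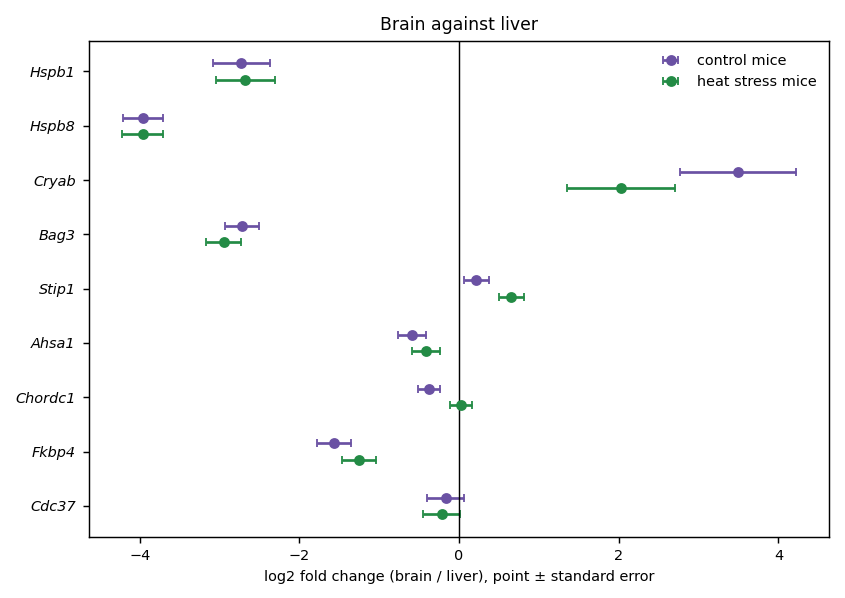
Log2 fold change of brain against liver (x axis) for the 9 members (y axis) in control and in heat stress mice, from an edgeR fit of all 12 libraries. Bars are standard errors. Hspb8 lies at -3.96 in both, and Cryab alone lies far above 0, at 3.49 in control and 2.03 in heat stress mice.

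Levels of different genes were set side by side only per length, as CPM per kilobase of the median transcript length. In control brains the order was Cryab at 110 ± 19.0 (mean ± SD, n = 3), Cdc37 at 71.4 ± 4.44, Chordc1 at 55.3 ± 7.60, Fkbp4 at 55.0 ± 3.37, Ahsa1 at 53.7 ± 1.59 and Stip1 at 52.6 ± 1.14, followed by Hspb8 at 12.3 ± 2.68, Hspb1 at 3.85 ± 0.43 and Bag3 at 2.55 ± 0.18. Chordc1, Fkbp4, Ahsa1 and Stip1 did not differ beyond their spread. In control livers the order was Hspb8 at 191 ± 20.7, Fkbp4 at 163 ± 50.4, Ahsa1 at 80.8 ± 21.9, Cdc37 at 80.1 ± 31.4, Chordc1 at 71.5 ± 3.75, Stip1 at 45.3 ± 7.86, Hspb1 at 25.6 ± 6.44, Bag3 at 16.9 ± 4.30 and Cryab at 9.62 ± 6.86. Hspb8 and Fkbp4 overlapped, as did Ahsa1, Cdc37 and Chordc1. By these means Cryab came first in brain and last in liver. Its control livers ran from 5.21 to 17.5, with muscle-carrying liver control 1 the highest. The order of the co-chaperones depends on the length used. Per kilobase of the longest transcript, control brains had Stip1 at 52.6, Ahsa1 at 32.8, Fkbp4 at 31.9, Cdc37 at 10.4 and Chordc1 at 6.18, so the closeness of Chordc1, Fkbp4, Ahsa1 and Stip1 holds for the median length only.

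The gene with the most similar profile to a member over the 6 libraries of a tissue was named by the smallest root mean square difference of centred log2 CPM. In liver the profile nearest to Cryab was that of Tnnt1, a troponin of slow skeletal muscle (difference 0.082, against an SD of 0.97 for Cryab itself). Nearest in liver to Stip1 was Sec24d, a coat protein of transport vesicles (0.063), to Fkbp4 the tryptophanyl-tRNA synthetase Wars (0.11), to Chordc1 Mageh1 (0.038), to Ahsa1 2810006K23Rik (0.034) and to Cdc37 the amino acid transporter subunit Slc3a2 (0.024). Hspb1 was nearest to Tbx3 (0.12), Hspb8 to Csf1 (0.055) and Bag3 to Fam222b (0.034). In brain the nearest were Ccdc130 for Fkbp4 (0.017), Tmem98 for Cryab (0.024), Tmco3 for Stip1 (0.025), Mavs for Ahsa1 (0.029), Spidr for Chordc1 (0.042), Knstrn for Cdc37 (0.016), Crispld2 for Hspb1 (0.046) and Qrfpr for Hspb8 (0.057). None of these nearest genes was shared between members or between tissues, and with 6 libraries and 12287 or more candidates such likeness is a description only.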

How the data were processed

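Raw read counts per gene symbol, as deposited by the authors, were used for the 12 libraries. The submitters' processing notes name Trimmomatic 0.39, HISAT2 2.2.1, featureCounts of Subread 2.0.1 and mm10, and the paper's methods describe this route and also a route through Tophat2 with another counter. The authors also deposited tables of their own comparisons, with log2 fold changes and p-values, which were not used. No column of a library outside the series was found.

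In R 4.3.3, edgeR 4.0.16 was used with TMM factors, filterByExpr (minimum count 10, minimum total 15), robust quasi-likelihood fits and Benjamini-Hochberg adjustment over all genes tested. A call is an adjusted p under 0.05. Heat was tested within each tissue on 6 libraries. Brain against liver, the difference of heat effects and the mean heat effect came from a fit of 4 groups. Standard errors were derived from each log2 fold change and its F statistic. For a single value of 3 against 3 libraries an exact permutation test cannot go below 0.1. The labels do not name the mouse behind each library, so p-values measure the spread between libraries. On simulated counts with 200 genes changed 4-fold, edgeR recovered 188 in brain (14 false calls), 188 in liver (20) and 173 between control tissues (11). It recovered 114 for the difference of heat effects (1) and 163 for the mean heat effect (11), and limma 170 for the latter (13). DESeq2 recovered 187 in brain (34), 189 in liver (33), 178 between control tissues (33), 123 for the difference (16) and 163 for the mean (23). The members' heat estimates were smaller than 4-fold, so these counts do not show how often changes of their size are found. In the run between control tissues the other genes had equal means in brain and liver, unlike the data.

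The members and the gene lists were chosen with earlier results of these data known. Genes named are the members, for each related list and tissue the 2 genes with the smallest unadjusted p, and for each member the nearest profile, of which 1 is not reported here. DESeq2 1.42.0, limma 3.58.1 (voom with a random effect of replicate number), other scalings and filters, covariates, a replicate block and omitted libraries served as alternatives. Replicate numbers were taken to pair control brain with control liver from the data (correlations of deviations 0.30, 0.30 and 0.11), not from the labels. The block over both tissues and the random effect also joined heat stress brain and liver by number. There the correlations were 0.045, -0.17 and 0.0069, so the data do not show that pairing. Control and heat stress libraries of a tissue were not paired in the main fits. The replicate block within a tissue joined them by replicate number, although no pairing between them is known. Their same-number correlations were -0.31, 0.28 and -0.21 in brain and -0.64, -0.55 and -0.0094 in liver. Transcript lengths came from GENCODE M21 and promoters from RefSeq GRCm38.p6. Protein sequences were not used here.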

Additional observations from a re-analysis of the deposited data

How the results depend on the processing

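With 3 libraries per group, no member passed adjustment within a tissue by edgeR. The heat effects of some members, such as Hspb8 and Cdc37, lay within the spread between libraries, while that of Chordc1 in liver lay beyond it. Of 1008 member log2 fold changes recomputed under alternatives, 932 kept direction and side of the threshold, 7 lost and 7 gained a call, and 62 turned sign. The cause of these shifts was not tested. DESeq2 left the adjusted p of Hspb1, Hspb8 and Bag3 in brain unset.

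In brain, 618 genes were called by DESeq2 and 11 by DESeq2 on all 12 libraries. The 3 members lower at an unadjusted p under 0.05 became 0 with DESeq2 or edgeR on all 12 libraries and with the choroid plexus, endothelium or striatum score as covariate (chosen after seeing the data), 1 with the replicate block, and 1 to 4 when each library was left out (1 without brain heat stress 3). The Cdc37 estimate was -0.0051 with no filter, -0.012 with DESeq2 on all 12 libraries, -0.11 with the choroid plexus and -0.076 with the striatum score. Hspb8 was at -0.17 with the endothelium score and Hspb1 at 0.17 with the striatum score. Leaving out libraries gave -0.24 to 0.22 for Hspb8 and -0.041 to 0.063 for Cdc37, and for estimates that stayed below 0, -0.88 to -0.20 for Hspb1, -0.29 to -0.12 for Stip1, -0.29 to -0.11 for Ahsa1 and -0.22 to -0.030 for Chordc1.

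In liver, genes called numbered 61 with DESeq2, 2 with upper quartile factors, 8 with no filter, 168 with DESeq2 and 14 with edgeR on all 12 libraries, 1 with the replicate block, 45 with the muscle score, 81 without the 2 muscle-carrying libraries, 6 with the column suffix as covariate, and 0 to 25 when each library was left out (25 without liver control 1). Members called became 2 with DESeq2 on all 12 libraries, and members lower at an unadjusted p became 1 with the replicate block and 5 with the muscle score. Hspb8 was at -0.013 with the muscle score and -0.11 without the 2 libraries. Leaving out libraries gave -0.11 to 0.11 for Hspb8, -0.42 to 1.78 for Cryab and -0.041 to 0.37 for Cdc37.

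Between the tissues, Cdc37 in control mice was at 0.20 without the 2 muscle-carrying libraries and at -0.32 to 0.20 over omitted libraries. Leaving out these 2 libraries was chosen after seeing the data for results that use both tissues. In heat stress mice Chordc1 was at -0.024 with no filter, -0.030 without the 2 libraries and -0.061 to 0.085 over omitted libraries. The replicate block left the same 7 members called in control mice and changed no other member call.

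For the difference of heat effects, genes called numbered 48 with DESeq2, 0 with RLE factors, upper quartile factors, no filter or the replicate block, 7 without the 2 muscle-carrying libraries and 0 to 4 over omitted libraries. Hspb8 was at -0.012 with upper quartile factors and -0.11 without the 2 libraries, and Ahsa1 at 0.039 without them. Omitted libraries gave -0.48 to 0.44 for Hspb1, -0.18 to 0.32 for Hspb8, -0.12 to 2.24 for Cryab, -0.30 to 0.065 for Ahsa1, -0.11 to 0.42 for Cdc37, 0.026 to 0.45 for Bag3, -0.53 to -0.28 for Stip1, -0.46 to -0.26 for Chordc1 and -0.47 to -0.031 for Fkbp4. For the mean heat effect, genes called numbered 70 with DESeq2 (2 of them members), 18 without the 2 libraries and 1 to 14 over omitted libraries. Without the 2 libraries Hspb8 was at -0.021 and Cryab at -0.060, and omitted libraries gave -0.11 to 0.12 for Hspb8, -0.45 to 0.73 for Cryab and -0.052 to 0.21 for Cdc37. A fixed replicate block leaves no estimate of the mean effect. With the replicate number as a random effect (limma, chosen after seeing the data), the mean effect gave 7 genes and 0 members called, 4 members lower at an unadjusted p under 0.05 and no change of sign.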
